A study of Rattus norvegicus with 9 samples.

Results

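The mitochondrial carrier family, whose genes are named Slc25a in the rat, was measured in kidneys on arrays of gene probes. Its members were all gene probes (control spots left out) whose gene name in the array files starts with Slc25a, except Slc25a20. This gave 44 genes of the 26115 gene names on the array, read by 59 probes, and 37 of them were bright enough to be tested. No carrier passed both thresholds for a call, an FDR of 0.05 and a fold change of 1.5. The lowest FDR in the family was that of Slc25a23, which was lower in MSC-perfused kidneys.

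Mitochondrial carriers are small proteins of the inner mitochondrial membrane, built from repeats of a pair of membrane-spanning helices. Each moves a particular set of metabolites between the cytosol and the matrix, usually by exchanging one for another: ADP for ATP, malate for other dicarboxylates, aspartate for glutamate. Tubules of the kidney work largely by oxidative metabolism, and these carriers bring the phosphate and ADP that ATP synthesis uses and send the ATP out.

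All 9 kidneys came from a rat model of donation after circulatory death, with F344 rats as donors, and all had 20 min. of warm ischaemia. The 5 NP kidneys were removed and not perfused. For the arrays, the kidneys of both groups were kept in RNAlater. The 4 MSC kidneys were perfused for 4 hrs at 4 °C with Belzer solution (BS) that held 3000000 mesenchymal stromal cells (MSC), grown from the bone marrow of Sprague Dawley rats transgenic for EGFP. A group perfused with BS alone was not analysed here, so that the effect of the MSC and that of cold perfusion cannot be told apart. The submitters' labels do not speak with one voice about NP: the treatment field says that these kidneys were not perfused, while the sample titles speak of BS perfusion. The name NP follows the paper. Another MSC array that the authors set aside for its quality was not analysed here. Each array held the RNA of 1 kidney. Values are normalised log2 intensities of 1 colour (Cy3), so that 1 unit is a doubling, and a log2 fold change is the MSC mean minus the NP mean. In a piece of whole kidney, fewer cells of a type and less RNA per cell cannot be told apart.

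The arrays were on 2 slides, the first with NP1, NP2, NP3, MSC1 and MSC2 and the second with NP4, NP5, MSC3 and MSC4. Each of the 10 proximal tubule and 6 thick ascending limb markers passed the filter on low intensity, and 0 of the 3 liver and 0 of the 3 skeletal muscle genes listed did. Several arrays stood apart in markers of other tissues. The 3 red cell genes tested were all lower in MSC (median log2 fold change -1.68), and MSC1 had the lowest mean of them, at -3.16 relative to the average array on the log2 scale. All 7 genes of perirenal fat tested were higher in MSC (median log2 fold change 1.43), with a mean 2.44 above the average array on MSC3 and 1.63 above it on MSC4. For named carriers whose log2 fold change moved by over 1.5 times without MSC1, or without MSC3 and MSC4, that value is given as well.

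Of the 37 carriers tested, 0 were called, against 0 of 13837 genes (0.00%). At an unadjusted p under 0.05 from limma, 3 carriers were higher in MSC (Slc25a45, Slc25a3 and Slc25a17) against 6.57% of all genes, and 3 were lower (Slc25a23, Slc25a16 and Slc25a34) against 5.10%. By sign alone, 20 carriers were higher and 17 lower, or 54.1% higher against 48.5% of all genes. The median log2 fold change of the carriers was 0.03, against -0.01 over all genes, and the range ran from -0.63 (Slc25a16) to 0.35 (Slc25a45). With each array scaled to its median, 17 carriers were higher and 20 lower, or 45.9% higher against 40.8% of all genes. The MSC arrays were all above the NP arrays for 1 carrier (Slc25a45, against 3.17% of all genes) and all below them for 2 (Slc25a23 and Slc25a39, against 2.12%). For 37 carriers, each of the shares of all genes given for p and for arrays without overlap amounts to about 1 or 2 genes.

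**Figure D1:**
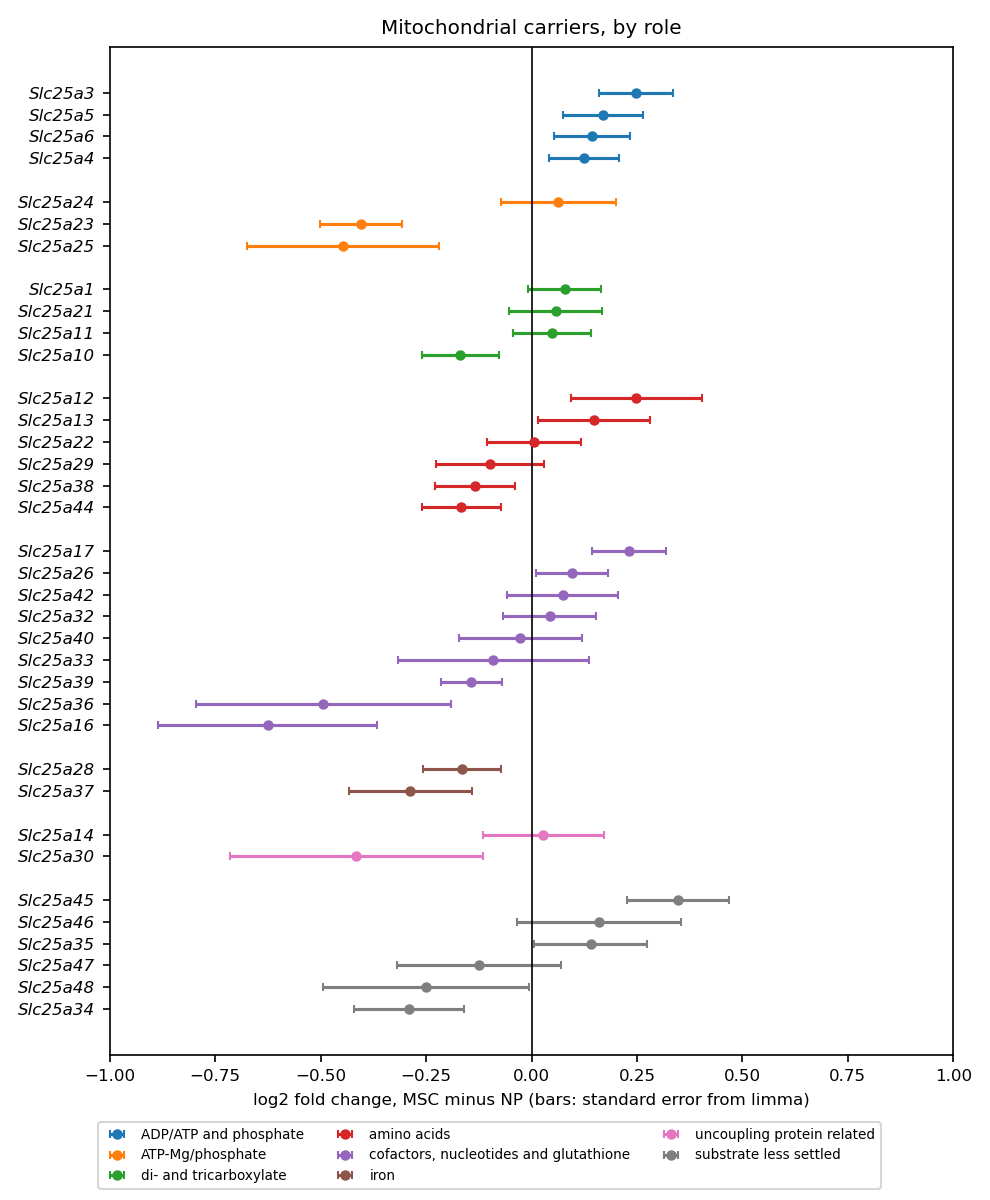
Log2 fold change of 36 of the 37 tested carriers (MSC minus NP, horizontal axis) with the standard error from limma as bars, grouped and coloured by role. The 4 ADP/ATP and phosphate carriers are all to the right of 0, the iron carriers are both to the left, and Slc25a16 is farthest to the left at -0.63.

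The carriers classed by name as serving ATP synthesis directly were all a little higher in MSC, 4 of 4 tested. Their median log2 fold change was 0.16. Among them 1 (Slc25a3) passed an unadjusted p of 0.05 from limma and 0 an FDR of 0.05. Of all genes 48.5% were higher by sign and 6.57% were higher at that p, and a class of 4 genes is too small to be read against these shares. Slc25a3 brings phosphate into the matrix, where ATP synthase uses it. Slc25a3 read 16.03, 16.13, 16.10, 16.00 and 16.16 on NP1 to NP5 and 16.29, 16.38, 16.14 and 16.51 on MSC1 to MSC4. Only MSC3 lay inside the NP range, just under NP5, and MSC4 was the highest of all. This gave a log2 fold change of 0.25 ± 0.09 (SE, limma FDR 0.357). It was 0.25 within each slide, and between 0.19 (without MSC4) and 0.31 (without MSC3) when 1 array was left out.

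The ADP/ATP carriers exchange ADP of the cytosol for ATP of the matrix. Slc25a4 and Slc25a5 are the forms known from heart and muscle and from most other tissues. The probe named Slc25a6 was designed on a model of a predicted non-coding RNA. It was counted in this class by its name, and whether it reads a separate carrier was not tested. For Slc25a5, NP arrays were at 16.71, 16.30, 16.50, 16.64 and 16.67 and MSC arrays at 16.76, 16.71, 16.69 and 16.77, a log2 fold change of 0.17 ± 0.10 (SE, limma FDR 0.515). Slc25a4 was at 15.40, 15.09, 15.34, 15.25 and 15.33 in NP and at 15.48, 15.42, 15.39 and 15.34 in MSC, a log2 fold change of 0.12 ± 0.08 (SE, limma FDR 0.572). Slc25a6 was at 16.89, 16.56, 16.86, 16.86 and 16.95 in NP and at 17.00, 16.93, 16.95 and 16.99 in MSC, a log2 fold change of 0.14 ± 0.09 (SE, limma FDR 0.552).

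In all these carriers of ADP and ATP the MSC arrays overlapped the upper NP arrays, and NP2 was the lowest array of the 9. Without NP2 the log2 fold changes were 0.10 for Slc25a5, 0.08 for Slc25a4 and 0.08 for Slc25a6. Within slides 1 and 2 they were 0.23 and 0.08 for Slc25a5, 0.17 and 0.07 for Slc25a4, and 0.20 and 0.06 for Slc25a6. With each array scaled to its median they were 0.08, 0.05 and 0.05, and Slc25a3 was at 0.16. These genes are close in sequence, and whether their probes also bind each other's RNA was not tested. Slc25a31, the form known from testis, had no probe above background on any array.

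Slc25a5 has another probe, which was set aside because the probe with the larger variance was kept for each gene. Both lie on the minus strand of chromosome X in the rat build rn4. The file gives the kept probe an interval longer than the probe itself (chrX:8072602-8072997), and places the other at chrX:8073675-8073734.
Slc25a5, kept, A_44_P175954: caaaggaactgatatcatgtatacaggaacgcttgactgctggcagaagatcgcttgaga
Slc25a5, other, A_64_P313659: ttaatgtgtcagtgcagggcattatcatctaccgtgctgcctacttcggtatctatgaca
On the other probe the NP arrays read 17.01, 16.87, 16.89, 16.92 and 16.98 and the MSC arrays 17.20, 17.11, 17.07 and 17.17. Here each MSC array was above each NP array, and the difference of 0.20 ± 0.07 (SE) had a limma FDR over all probes of 0.336. This probe was picked out after its values were seen.

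The ATP-Mg/phosphate carriers set how much adenine nucleotide the matrix holds, and those tested here are regulated by calcium. Of the 3 tested, 1 was higher and 2 were lower, with a median log2 fold change of -0.41. Slc25a23 had the smallest p of the family. The file places its probe at chrUn:24722447-24722506 in rn4, on a piece of sequence not assigned to a chromosome, and its first 30 bases are shown.
Slc25a23, A_43_P17029, first bases: tgagaggaaaactgggatgctgggggacac
Slc25a23 was at 15.87, 16.24, 15.89, 15.93 and 16.05 on the NP arrays and at 15.54, 15.47, 15.69 and 15.66 on the MSC arrays. All MSC arrays were below all NP arrays. NP averaged 16.00 ± 0.15 (SD, n = 5) and MSC 15.59 ± 0.10 (SD, n = 4), and the log2 fold change was -0.41 ± 0.10 (SE, limma FDR 0.333). Within the slides it was -0.49 and -0.31, and without any 1 array it stayed between -0.44 and -0.34. Without MSC3 and MSC4, the arrays high in fat markers, it was -0.49.

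Slc25a25 was at 16.51, 16.93, 16.16, 16.00 and 16.11 in NP and at 15.36, 15.81, 16.29 and 16.11 in MSC. NP2 was the highest and MSC1 the lowest of the arrays, both on slide 1, and the slide 2 arrays of either group lay between 16.00 and 16.29. Slc25a25 had a log2 fold change of -0.45 ± 0.23 (SE, limma FDR 0.478), with -0.94 within slide 1 and 0.14 within slide 2. Without MSC1, its lowest array, the value was -0.27, and without MSC3 and MSC4 it was -0.75. The difference between the slides, tested after the data were seen, was 1.09 (limma FDR over all genes 1.00). It was the only carrier past an unadjusted p of 0.05 in that test, which 1.93% of all genes passed. Its probe was spotted 10 times on each array, and the SD between those spots had a median of 0.10 on the log2 scale, against an SD of 0.38 between NP kidneys and 0.41 between MSC kidneys. The mean of 8 immediate early and stress genes was below the average array on NP1, NP2, NP3 and MSC1 and above it on the other arrays, though single genes varied and Fosb was highest on NP2. The part of these genes in the value was not tested. Slc25a24 had a log2 fold change of 0.06, with -0.15 within slide 1, 0.30 within slide 2, -0.19 with arrays scaled to the 75th percentile and -0.02 without MSC4, so that its sign was not settled, and Slc25a41 was not above background on any array.

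The di- and tricarboxylate carriers exchange malate, succinate, citrate and oxoglutarate across the membrane. Of the 4 tested, 3 were higher and 1 lower, none at an unadjusted p under 0.05 from limma, with a median log2 fold change of 0.05. Slc25a1, the citrate carrier, read 12.57, 12.58, 12.88, 12.76 and 12.71 in NP and 12.80, 12.86, 12.74 and 12.71 in MSC, a log2 fold change of 0.08 ± 0.09 (SE, limma FDR 0.751). Slc25a11, the oxoglutarate carrier of the malate-aspartate shuttle, was at 15.53, 15.28, 15.64, 15.66 and 15.58 in NP and at 15.67, 15.56, 15.60 and 15.51 in MSC, a log2 fold change of 0.05 ± 0.09 (SE, limma FDR 0.872). For both, the MSC arrays lay within or beside the NP range, and the sign of Slc25a11 turned (-0.02) when NP2, its lowest array, was left out. Slc25a11 was at 0.02 without MSC1 and at 0.08 without MSC3 and MSC4, and Slc25a1 at 0.13 without the latter pair. With 1 array left out, Slc25a1 ranged from 0.05 (without NP1, NP2 or MSC2) to 0.12 (without NP3).

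Slc25a10, the dicarboxylate carrier, which also has been linked to glutathione in kidney mitochondria, was at 15.22, 15.28, 15.36, 15.46 and 15.32 in NP and at 15.18, 15.22, 15.29 and 14.94 in MSC. MSC4 was the lowest array and the groups overlapped. This gave a log2 fold change of -0.17 ± 0.09 (SE, limma FDR 0.495), and -0.10 without MSC4.

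Of the carriers of amino acids, 6 of 9 were tested, 3 higher and 3 lower, with a median log2 fold change of -0.05 and none at an unadjusted p under 0.05 from limma. Slc25a12 and Slc25a13 exchange aspartate for glutamate and form the other arm of the malate-aspartate shuttle. Slc25a12 was at 13.96, 13.26, 13.22, 13.25 and 13.63 in NP and at 13.69, 13.68, 13.64 and 13.85 in MSC, a log2 fold change of 0.25 ± 0.16 (SE, limma FDR 0.550). The MSC arrays lay above 4 NP arrays and below NP1. Without NP1 the value was 0.37, and on its other probe it was 0.08. Slc25a13 was at 12.67, 12.17, 12.79, 12.52 and 12.66 in NP and at 12.88, 12.79, 12.65 and 12.52 in MSC, a log2 fold change of 0.15 ± 0.13 (SE, limma FDR 0.678). The groups overlapped, and NP2 was the lowest array. The value was 0.29 within slide 1 and -0.01 within slide 2. It was 0.05 without NP2, 0.09 without MSC1 and 0.27 without MSC3 and MSC4, and 0.02 on the other probe.

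The other tested carriers of this class ranged from -0.17 to 0.01 on the log2 fold scale. Slc25a15 (ornithine) was not above background on any array, Slc25a2 (basic amino acids) was above it on 2 NP arrays and 1 MSC array, and Slc25a18 (glutamate) on 1 of each. These carriers were not tested.

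The class of cofactors, nucleotides and glutathione held 10 carriers, all tested, 5 higher and 5 lower, with a median log2 fold change of 0.01. Slc25a17, a carrier of cofactors that is found in peroxisomes, was at 13.62, 13.42, 13.33, 13.26 and 13.37 in NP and at 13.59, 13.71, 13.58 and 13.64 in MSC. Apart from NP1, each NP array was below each MSC array. Slc25a17 had a log2 fold change of 0.23 ± 0.09 (SE, limma FDR 0.387), and 0.29 without NP1.

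Slc25a16, a carrier linked to coenzyme A, had the lowest log2 fold change of the family, and the value differed from probe to probe. The kept probe was at 12.39, 13.48, 13.30, 12.80 and 12.47 in NP and at 11.94, 12.53, 11.92 and 12.66 in MSC, and had a log2 fold change of -0.63 ± 0.26 (SE, limma FDR 0.404). NP2 and NP3 were the highest and MSC1 and MSC3 the lowest, and the groups overlapped. Within the slides the value was -0.82 and -0.35, and leaving out NP2 gave -0.48. A probe further upstream had -0.24 ± 0.11 (SE). A probe close to the kept one on the genome and spotted 10 times had -0.02 ± 0.09 (SE), with NP arrays between 10.68 and 10.97 and MSC arrays between 10.56 and 10.91. The kept probe (chr20:25285167-25285226) and the upstream one (chr20:25273156-25273215), both on the plus strand of rn4, are shown since the value turns on the probe.
Slc25a16, kept, A_64_P123695: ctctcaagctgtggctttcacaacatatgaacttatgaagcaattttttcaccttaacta
Slc25a16, upstream, A_64_P113999: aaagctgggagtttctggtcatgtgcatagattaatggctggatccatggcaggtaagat

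Slc25a39, known for bringing glutathione into mitochondria, was at 14.84, 15.05, 14.98, 14.99 and 14.89 in NP and at 14.77, 14.82, 14.82 and 14.83 in MSC. All MSC arrays were below all NP arrays, by a narrow margin between MSC4 and NP1. This gave a log2 fold change of -0.14 ± 0.07 (SE, limma FDR 0.475), and -0.05 on its other probe. Slc25a36, a carrier of pyrimidine nucleotides, stood out by spread and is named after its values were seen: -0.49 ± 0.30 (SE) on the kept probe, where NP2 was at 11.48 and the other NP arrays between 9.79 and 10.52, and -0.09 on its other probe. Without NP2 the kept probe was at -0.23.

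**Figure D2:**
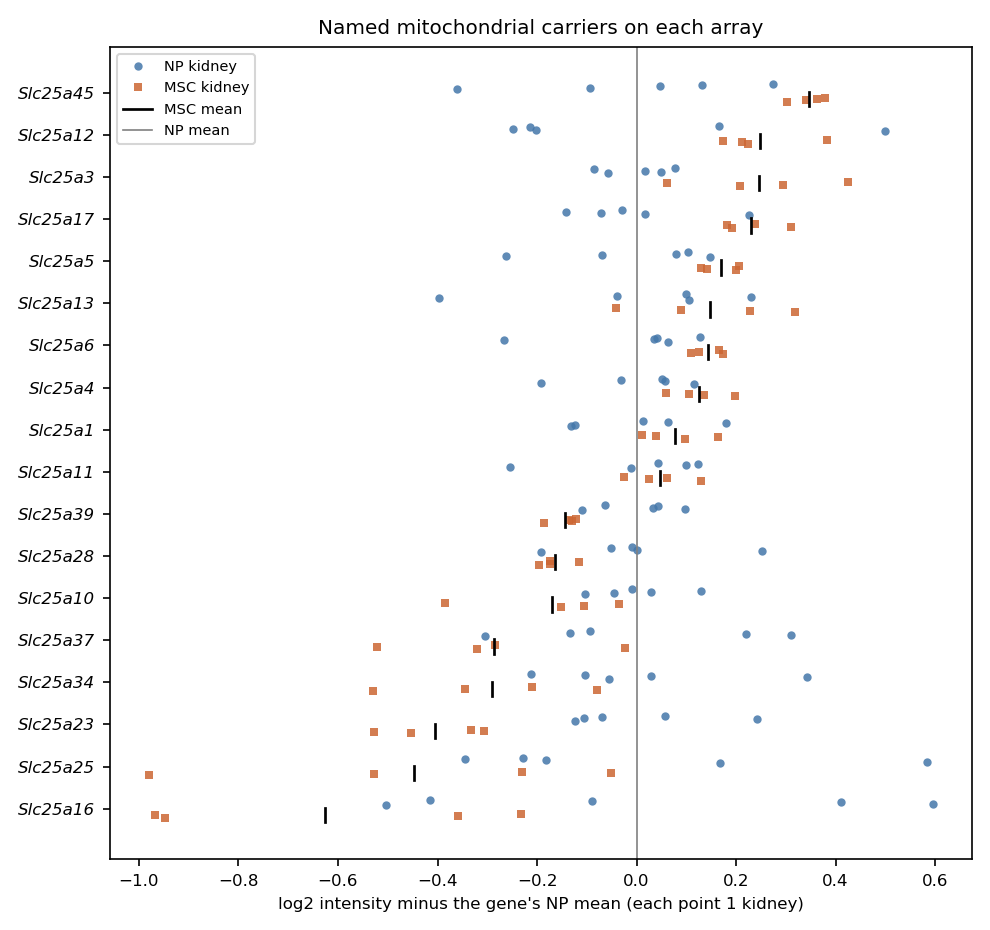
Log2 intensity of the 18 named carriers on each array, as the difference from the gene's NP mean (horizontal axis, each point 1 kidney, circles NP and squares MSC, black bar the MSC mean). For Slc25a45, Slc25a23 and Slc25a39 the groups do not overlap, and in Slc25a25 and Slc25a16 they do.

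Both iron carriers were lower in MSC, with a median log2 fold change of -0.23, neither at an unadjusted p under 0.05 from limma. Slc25a37 (mitoferrin-1), which brings iron to haem synthesis in red cell precursors, was at 9.19, 9.80, 9.71, 9.35 and 9.40 in NP and at 9.17, 9.47, 8.97 and 9.20 in MSC. MSC3 was the lowest array, and MSC2 and MSC4 lay inside the NP range. Slc25a37 had a log2 fold change of -0.29 ± 0.15 (SE, limma FDR 0.478), and -0.17 without MSC3 and MSC4. Red cell genes were lower in MSC too (3 of 3, median log2 fold change -1.68), with their lowest means on MSC1 (-3.16) and MSC3 (-1.27). Without MSC1 the value of Slc25a37 was -0.28 and without MSC3 it was -0.21, and the part of red cells in it was not tested. Slc25a28 (mitoferrin-2), the form of other tissues, was at 14.38, 14.83, 14.58, 14.52 and 14.57 in NP and at 14.38, 14.40, 14.46 and 14.40 in MSC. The MSC arrays lay close together at the low end of the NP range, near NP1. This gave a log2 fold change of -0.16 ± 0.09 (SE, limma FDR 0.513), and -0.10 without NP2, the highest array. On its other probe, picked out after its values were seen, the difference was -0.13 ± 0.06 (SE, limma FDR over all probes 0.470). There all MSC arrays (11.68 to 11.79) lay below all NP arrays (11.81 to 11.91), by a narrow margin.

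Of the carriers related to the uncoupling proteins, Slc25a14 and Slc25a30 were tested, 1 higher and 1 lower (0.03 and -0.42). The sign of Slc25a14 was not settled, with -0.09 within slide 1, 0.09 within slide 2 and -0.08 without MSC4, and Slc25a30 was at -0.67 without NP1 and -0.28 without NP2. In the same class Slc25a27 was not above background on any array. The family's remaining 7 genes have less settled substrates. Of these, 6 were tested, 3 higher and 3 lower, with a median log2 fold change of 0.01, and Slc25a54 was not above background on any array.

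Slc25a45, which had the highest log2 fold change of the family, was read by 1 probe. The file gives it an interval longer than the probe on chromosome 1, plus strand (chr1:208515224-208515567).
Slc25a45, A_44_P313971: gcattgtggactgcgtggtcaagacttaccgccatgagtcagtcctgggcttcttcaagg
Slc25a45 was at 9.28, 9.55, 9.69, 9.78 and 9.92 in NP and at 9.95, 9.99, 10.01 and 10.02 in MSC. Each MSC array was above each NP array, though NP5 (9.92) and MSC1 (9.95) were close. NP averaged 9.65 ± 0.24 (SD, n = 5) and MSC 9.99 ± 0.03 (SD, n = 4). Slc25a45 had a log2 fold change of 0.35 ± 0.12 (SE, limma FDR 0.348), with 0.46 within slide 1 and 0.17 within slide 2, and 0.26 without NP1. Slc25a34 was at 10.96, 11.35, 11.04, 10.91 and 10.80 in NP and at 10.48, 10.93, 10.67 and 10.80 in MSC. NP2 was the highest array and the groups overlapped. Its log2 fold change of -0.29 ± 0.13 (SE, limma FDR 0.426), and -0.12 within slide 2.

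Of the 44 carriers, 14 had several probes, and for 9 more than 1 probe passed the filter. The probes had the same sign in 7 of these genes. In Slc25a33, a carrier of pyrimidine nucleotides, the log2 fold changes were -0.09 and 0.04, both smaller than their standard errors. The kept probe had the larger log2 fold change in size in 8 of the 9 genes, Slc25a5 being the exception. The rule of keeping the probe with the largest variance set the size of several values above, Slc25a16 and Slc25a36 more than the others.

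**Figure D3:**
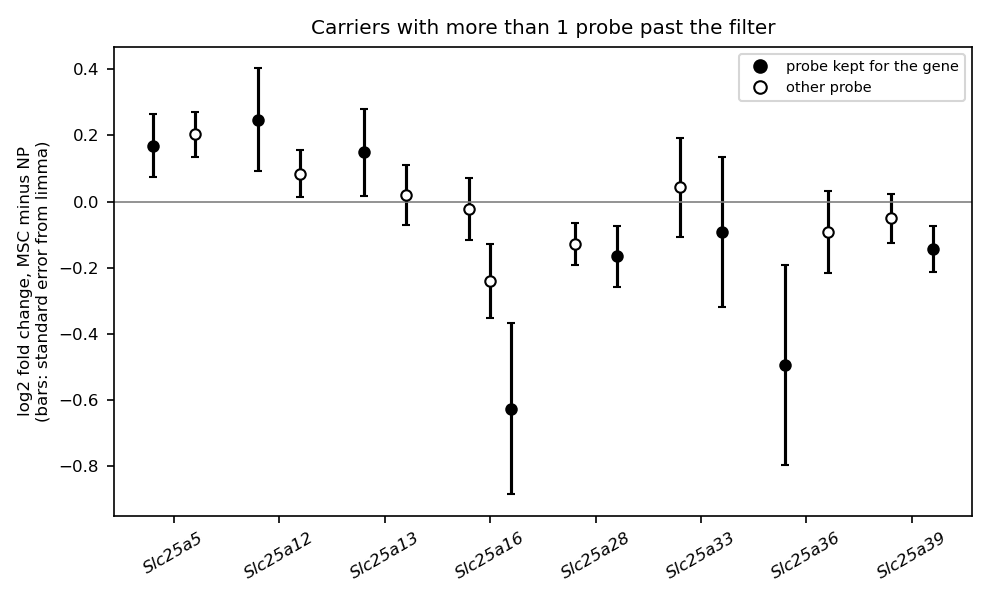
Log2 fold change (MSC minus NP, vertical axis, bars the standard error from limma) of each probe of 8 carriers with more than 1 probe past the filter, filled for the probe kept and open for the others. The 3 probes of Slc25a16 run from -0.63 to -0.02, and of the carriers drawn only Slc25a33 has probes on both sides of 0.

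No array was the highest or the lowest of its group for all carriers. Among the NP arrays, NP1 was the highest for 11 and the lowest for 13 of the 37 carriers, NP2 the highest for 11 and the lowest for 7, and NP4 the highest for 5 and the lowest for 11. Among the MSC arrays, MSC3 was the highest for 5 and the lowest for 15. Over all genes NP1, NP2, NP4 and MSC3 were the highest of their group for 21.7%, 34.6%, 16.1% and 20.5%, and the lowest for 35.6%, 25%, 14.7% and 32.1%. Within slide 1 the median log2 fold change of the carriers was -0.09 (15 higher, 22 lower), and within slide 2 it was 0.05 (20 higher, 17 lower).

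**Figure D4:**
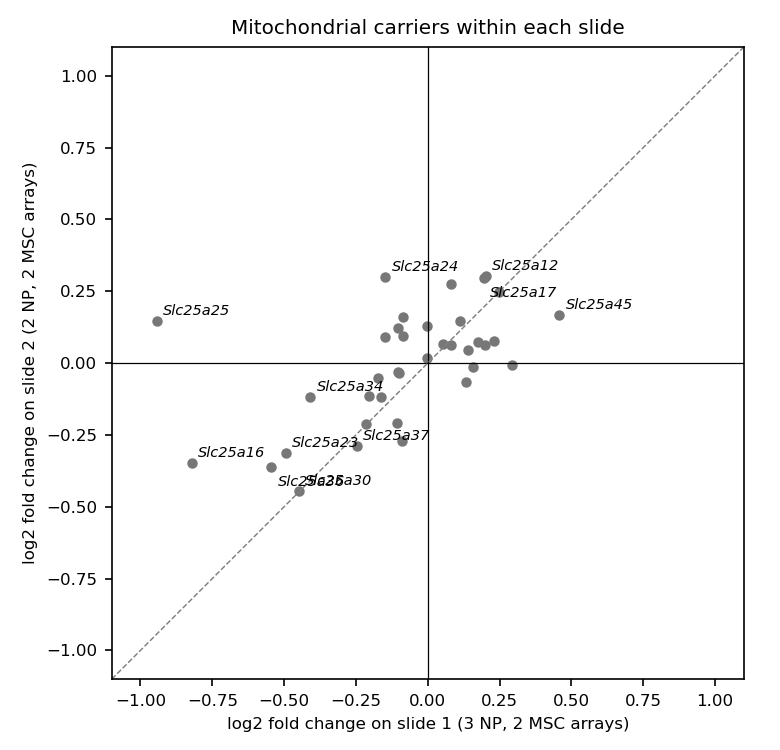
Log2 fold change of the 37 tested carriers within slide 1 (horizontal axis, 3 NP and 2 MSC arrays) and within slide 2 (vertical axis, 2 NP and 2 MSC arrays), with a dashed line where both are equal. Slc25a25 lies far from the line at -0.94 and 0.14, while Slc25a30 and Slc25a37 lie close to it.

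Other genes that move solutes and proteins across the mitochondrial membranes gave a like picture. Of 36 such genes on the array 34 were tested, 18 higher and 16 lower, with a median log2 fold change of 0.00, and 0 were called. At an unadjusted p under 0.05 from limma, 3 were higher: Vdac3, a pore of the outer membrane (0.31, FDR 0.333), Mpc1, a subunit of the pyruvate carrier (0.22, FDR 0.348), and Tomm40, the channel through which proteins enter (0.36, FDR 0.333). In the other direction 2 were lower, among them Sfxn1, a serine carrier (-0.19, FDR 0.417). Of all genes 6.57% and 5.10% passed the same p, or about 2 of 34 genes in each direction. Vdac3 was at 15.65, 15.78, 15.92, 15.81 and 15.92 in NP and at 16.05, 16.05, 16.09 and 16.30 in MSC, all MSC arrays above all NP arrays. The same held for Mpc1, with NP between 16.85 and 17.06 and MSC between 17.09 and 17.31. In the opposite direction, the MSC arrays were all below the NP arrays for Timm10, a chaperone of carrier import, by a narrow margin (MSC between 13.71 and 13.88, NP between 13.88 and 14.02). These were 2 and 1 of the 34 genes, against the 3.17% and 2.12% of all genes given above. Mpc2, the partner of Mpc1, had a log2 fold change of -0.02.

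Uncoupling proteins belong to the same family under another name. Ucp1, the uncoupling protein of brown fat, had the largest log2 fold change among these genes (1.68 ± 1.28 SE, limma FDR 0.628). It was at 9.91, 8.91, 11.06, 8.22 and 8.15 in NP. In MSC it was at 14.35 on MSC3 and 12.91 on MSC4 and at most at 8.47 on the others. MSC3 and MSC4 were also the arrays with the highest means of the perirenal fat genes, a list that holds Ucp1. The part of the fat genes in the values of the carriers was not tested. Ucp2 had 0.05, and Ucp3 did not pass the filter. Regulators of mitochondrial biogenesis were 6 higher and 7 lower of 13 tested, none at an unadjusted p under 0.05 from limma, with a median of -0.01. Those with the smallest p in each direction were Polg, the polymerase of mitochondrial DNA (0.24, FDR 0.481), and Pprc1, a coactivator (-0.27, FDR 0.495). Ppargc1a, the best known coactivator of the list, had -0.01.

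Tubule markers were also a little higher in MSC, 8 of 10 for the proximal tubule (median log2 fold change 0.17), 5 of 6 for the thick ascending limb (median 0.18) and 5 of 6 for intercalated cells (median 0.37), where 48.5% of all genes were higher. Podocyte markers were lower (4 of 4, median -0.30). The lowest mean of the proximal tubule genes was on NP1, at -0.41 relative to the average array, and that of the intercalated cell genes on NP2, at -0.53, the array lowest in the ADP/ATP carriers. Their part in the values of Slc25a3 and the ADP/ATP carriers was not tested.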

How the data were processed

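Kidney RNA was labelled with Cy3 and hybridised to 1-colour Agilent rat arrays. The raw intensity of each spot was measured by the authors with Agilent Feature Extraction 10.7.3.1 (submitters' processing notes and file headers). The table of log2 values deposited by the authors was normalised between arrays. It held 30507 rows, of which 140 were not gene probes, and so all 30367 gene probes, without a filter on low intensity. For the values given here, the pixel mean of each raw spot was log2 transformed and normalised by cyclic loess, after the study's methods. The choice of the pixel mean, without background subtraction, was made here. Pearson's r with the deposited log2 table, array by array over 15723 probes, lay between 0.99987 and 0.99997. The methods' filter can be read in several ways. It was taken as a log2 value above 1.1 times the 0.95 quantile of the 308 negative controls, also in log2, on at least 4 arrays, which left 15723 of 30367 gene probes. Outlier-flagged gene spots (273 to 593 on an array) were not used, spots of a probe averaged and the probe of largest variance kept for each gene (13837 genes, of which 13836 had a value on every array).

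MSC and NP were compared with limma 3.58.1 in R 4.3.3 (linear model, empirical Bayes, Benjamini-Hochberg FDR over all genes tested). A call needed an FDR of less than 0.05 and more than a 1.5-fold difference. The number of arrays limits the precision: 9 in all. The p-values set the difference between the group means against the spread between these kidneys, as moderated by empirical Bayes. A marker mean is the mean over the listed genes of the log2 value minus that gene's average over the arrays. The members and lists were chosen with earlier results of these data known. Every-array values are given for the 6 carriers with the smallest p in each direction and for a fixed list of 12 well-studied carriers, which together make 18, and for any named otherwise the text says so. Gene names are those of the files. Of the 59 probes, 45 had an accession in a current RefSeq name table, and 0 of these had another symbol. Positions and sequences are those of the array files, on rn4. Exons and UTRs of that build were not used here. No column holding values per sample was left unused (0). The steps were tested on simulated arrays. Alternatives took other intensity columns, normalisations, filters, probe choices, array weights and blocks, dropped 1 array at a time, or started from the deposited log2 table. The set without MSC3 and MSC4 was added after seeing the data. A few single genes and 1 probe sequence are not reported here.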

Additional observations from a re-analysis of the deposited data

Results flagged for a closer look

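Within NP, Slc25a6 had 1 array far from the other NP arrays. NP2 was at 16.56, while the other NP arrays lay between 16.86 and 16.95, and the gap to the nearest array was 0.769 of the group's range. Among the 36 groups of named carriers examined in this way it was the only one past the limit for its size, where chance would give about 1.8. The MSC arrays lay between 16.93 and 17.00, and without NP2 the log2 fold change of Slc25a6 was 0.08 in place of 0.14.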

How the results depend on the processing

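No carrier was called under any alternative, with limma. Over all genes, 2 were called with array weights and 4 within slide 2, and 0 otherwise. The count of carriers higher at an unadjusted p under 0.05, 3 of 37 (all genes 6.57%), became 1 with each array scaled to its median (2.03% of all genes), within slide 1 (3.58%), within slide 2 (3.61%) and without MSC3 and MSC4 (3.87%, added after seeing the data), and 5 with array weights (8.19%). Leaving out 1 array gave counts between 1 (without MSC2, 4.95%, or MSC4, 5.08%) and 4 (without NP1, 7.34%). The count lower, also 3 (all genes 5.10%), became 5 with median scaling (4.02%), 6 with array weights (8.48%), 1 with the slide as a block (5.71%) and 1 within slide 2 (4.26%). Leaving out 1 array gave counts between 1 (without NP2, NP3, NP4 or MSC1, with 3.53% to 4.73% of all genes) and 7 (without NP1, 9.31%). The median log2 fold change of the carriers (0.03) was -0.0408 with scaling to the 75th percentile, -0.0277 with median scaling (which moved the median of all genes to -0.04) and -0.0879 within slide 1, and between -0.0214 and 0.0241 with 1 array left out, being below 0 without NP2, MSC2 or MSC4. With the deposited log2 table it was -0.00162, with 18 carriers higher and 19 lower. The sign turned in 4 of the 18 carriers named by rule. Slc25a25 was at 0.14, Slc25a1 at -0.0128 and Slc25a13 at -0.00692 within slide 2. Slc25a11 was at -0.00729 with the 75th percentile, -0.0295 with median scaling, -0.0108 with array weights and -0.0651 within slide 2, and between -0.0162 (without NP2) and 0.0784 with 1 array left out. The causes were not tested.

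Replicate numbers were not shown to pair the arrays: NP and MSC arrays of the same number had residuals that correlated across genes at 0.20, 0.32, -0.35 and 0.05. With the replicate number as a block, which drops NP5 for want of a partner, 1 carrier was higher (6.28% of all genes) and 4 were lower (5.07%) at an unadjusted p under 0.05. The 7 carriers not tested had no probe that passed the filter on low intensity.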
